A study of Homo sapiens with 6 samples.

Results

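The replication-dependent histone genes encode the bulk core histones H2A, H2B, H3 and H4 and the linker histone H1. They were taken here as every gene on the array whose annotated symbol starts with H1-, H2AC, H2BC, H3C or H4C, or with the older HIST1H, HIST2H or HIST3H. In all, 50 of the 19775 genes with a probe set of their own met that rule. They were read by 58 single-gene probe sets, and 20 further probe sets are annotated to several genes at once, at least 1 of them a histone, which brings the symbols to 69. The rule also took genes that are not replication-dependent histones: H1-10, H1-6, H1-7 and H1-8, which are replacement or germ cell linker histones, the antisense RNA H1-10-AS1, and the pseudogenes H1-9P, H2AC5P and H4C10P. The samples were Capan-1 cells, an established human pancreatic carcinoma line. A set of 3 samples had been transfected with a cDNA of p16 (p16INK4a), an inhibitor of the kinases CDK4 and CDK6, under a CMV promoter, and 3 samples were mock-transfected. The labels number them V1, V2 and V3 in each group, and describe culture in 15% fetal calf serum and selection with G418 (1 mg/ml) together with hygromycin (0.1 mg/ml). Whether a sample is 1 clone, a pool of transfectants or a separate culture is not stated, so a p-value here speaks of the scatter among these 6 samples alone, which could be technical. The study compared the p16 with the mock samples, and its title names apoptosis after restored p16.

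Replication-dependent histone genes are transcribed mainly in S phase, when new DNA has to be packed into nucleosomes. Most lie in clusters on chromosomes 6 and 1, lack introns, and make messages that end in a conserved stem-loop in place of a poly(A) tail. The stem-loop is bound by SLBP, and transcription depends on NPAT, a target of cyclin E and CDK2. Some of these genes, among them H2BC21, H2BC12, H2BC5, H2AC6 and H1-2, are known to make polyadenylated messages as well. Array labelling is commonly primed on poly(A) tails. How much of each form was labelled here was not tested.

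The start regions of a few of these genes are shown, chosen after their values were seen. H2AC6 and H2BC4 are divergent neighbours that share 1 region between their starts, yet their probe sets differed in behaviour, H2BC21 had the largest fall among the genes, H2BC12 and H2BC5 showed the split between V numbers, and H4C8 was the single H4 gene called. The sequences are from the RefSeq promoter table of build GRCh38.p14, each 150 bases up to the base before the start, and for H2AC6 and H2BC4 the whole 245 bases between both starts, chr6:26123927-26124171 on the plus strand, in the direction of H2AC6. H2BC21 is chr1:149886683-149886832 (minus strand), H2BC12 chr6:27146859-27147008 (minus), H2BC5 chr6:26157971-26158120 (plus) and H4C8 chr6:26285535-26285684 (minus). Capitals mark every match, on either strand, to the TATA box letters TATAAA, to the CCAAT box letters CCAAT, to the octamer ATTTGCAT long known from H2B promoters, or to either E2F-like run, TTTGGCGC and its variant TTTCGCGC. No motif of the 5 lies inside another.
H2AC6 and H2BC4: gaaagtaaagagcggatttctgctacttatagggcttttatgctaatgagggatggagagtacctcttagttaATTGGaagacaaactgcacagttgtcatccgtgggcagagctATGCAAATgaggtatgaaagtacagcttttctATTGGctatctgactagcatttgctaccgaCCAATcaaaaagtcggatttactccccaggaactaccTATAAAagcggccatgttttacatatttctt
H2BC21: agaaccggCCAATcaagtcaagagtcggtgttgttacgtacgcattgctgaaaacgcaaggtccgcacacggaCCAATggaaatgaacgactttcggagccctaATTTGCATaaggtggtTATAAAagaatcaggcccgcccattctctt
H2BC12: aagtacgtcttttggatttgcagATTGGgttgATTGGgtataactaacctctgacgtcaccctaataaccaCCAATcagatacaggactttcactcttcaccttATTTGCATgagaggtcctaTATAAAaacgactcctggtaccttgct
H2BC5: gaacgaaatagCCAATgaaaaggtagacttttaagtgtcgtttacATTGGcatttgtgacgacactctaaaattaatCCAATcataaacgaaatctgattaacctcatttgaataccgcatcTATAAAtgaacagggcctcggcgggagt
H4C8: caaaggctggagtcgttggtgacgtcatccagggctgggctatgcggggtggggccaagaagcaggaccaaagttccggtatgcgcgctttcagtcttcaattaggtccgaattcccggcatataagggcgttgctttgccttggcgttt

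The first 3 of these motifs were common in histone start regions, though not in every family. Within the 250 bases before the start, CCAAT occurred in 83.6% of the 67 histone genes of the table and in 37% of its 27305 genes. TATAAA occurred in 65.7% against 13%, and ATTTGCAT in 38.8% against 2.03%. The octamer was found in 14 of 18 H2B and 11 of 16 H2A genes, in 1 of 11 H3 genes and in no H1 or H4 gene. CCAAT was found in only 3 of 13 H4 genes (23.1%), under its share of all genes. TTTCGCGC occurred in 16.4% of histone genes against 0.542%, and TTTGGCGC in none of the 67 against 0.681% of all genes. In the region of H2AC6 and H2BC4 the octamer lies 130 bases before the start of H2AC6, on the opposite strand, while TATAAA lies 31 bases before it. H2BC5 holds no exact octamer in its window, and H4C8 holds none of the 5 motifs. A match is a run of letters, not a bound site.

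CDKN2A, the gene of p16, was high in every p16 sample, at 12.12, 13.01 and 12.67 (log2, V1 to V3) against 5.61, 6.43 and 6.01 in the mock samples. MTAP, its chromosomal neighbour, which a p16 cDNA does not carry, was high in the same samples, at 11.05 ± 0.29 (SD, n = 3) against 2.07 ± 0.01. Whether both groups hold the same cells apart from the cDNA was not tested. Of 7 duct carcinoma markers 5 were lower in the p16 samples and none higher, where 22.5% of all tested genes were lower and 19.5% higher. KRT19 read 13.97 ± 0.20 and 10.11 ± 0.40, and CEACAM6 lay under the floor of 4 in every p16 sample. The group means of these 7 ran from 10.20 to 15.92 in mock and from 3.60 to 14.48 in p16 samples. The 4 leukocyte markers on the array (PTPRC, CD3E, CD14 and LYZ) and all 4 endothelial markers lay under 4 in every sample. Among 6 fibroblast markers COL1A2, COL3A1 and DCN lay under 4 throughout, and PDGFRB reached 4 in 2 p16 samples alone. LUM, under the floor in mock samples, rose from 2.72 ± 0.02 to 8.92 ± 0.42. COL1A1 read 7.89 in mock and 7.76 in p16 samples where its mean level was highest. Of the 3 COL1A1 probe sets tested, however, 2 were called higher in the p16 samples. The part of these differences in the histone values was not tested. In these bulk samples, fewer cells with a transcript and less of it per cell cannot be told apart.

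Histone genes were lower in the p16 samples more often than higher. A probe set entered the test where it reached a log2 level of 4, above the median of each sample (3.106 to 3.183), in at least 3 of the 6 samples. That left 32 of the 78 probe sets, 19 of single genes and 13 shared, and 17 of the 50 genes. Of the 32, 14 were lower in the p16 samples and 0 higher (limma, adjusted p under 0.05; also 0 higher at an unadjusted p under 0.05), where 19.7% of all tested probe sets were lower and 17.5% higher. Of the 17 genes, each taken at its probe set with the highest mean, 8 were lower and 0 higher, against 22.5% and 19.5% of all genes tested. The median difference of the 17 genes was -2.26 on the log2 scale, or also -2.26 with values under 4 raised to 4, and that of all 11658 genes tested was -0.03. A single p16 or mock sample moved the count: leaving out mock V2, mock V3 or p16 V2 left 5 genes lower. In 8 of the 32 probe sets at least 1 p16 sample lay under 4, and in none did a mock sample, so those 8 passed the filter largely through the mock group. In 1 of them, 208180_s_at of H4C8, every p16 sample lay under 4. Leaving it out, 13 of 31 probe sets were lower (22 with the replicate block described next).

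**Figure D1:**
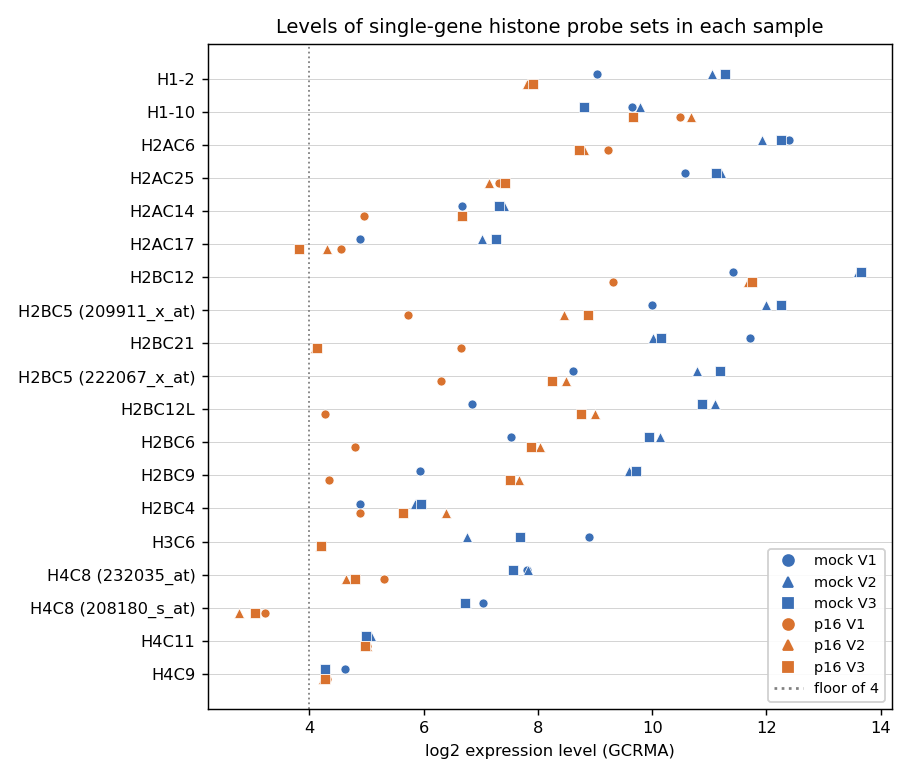
Each row is a tested single-gene histone probe set, with the log2 level on the x axis, mock samples in blue and p16 samples in orange, and the marker shape giving the V number. H2AC6, H2AC25, H3C6 and H4C8 separate by group, while in H2BC12, H2BC6 and H2BC9 the V1 circles of both groups lie to the left of the triangles and squares.

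The V number set much of the spread within groups. Taking V1, V2 and V3 as pairs across groups, p16 lay below mock in all 3 pairs for 24 of the 32 probe sets, where 40.2% of all tested probe sets did. In 15 every p16 sample lay below every mock sample, against a share of 26.1% overall. When the same model took the V number as a block (replicate block), 23 of the 32 were lower and 1 higher, where the shares over all probe sets were 32.6% and 30.9%. By gene, 13 of 17 were lower and 1 higher with the block, against 35.5% and 32.4% of all genes. The 23 include all 14 of the unblocked fit. The SD of the 3 differences within V numbers had a median of 0.36 over the histone probe sets, and the pooled SD within groups one of 0.73. Over all tested probe sets these medians were lower, at 0.25 and 0.39.

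**Figure D2:**
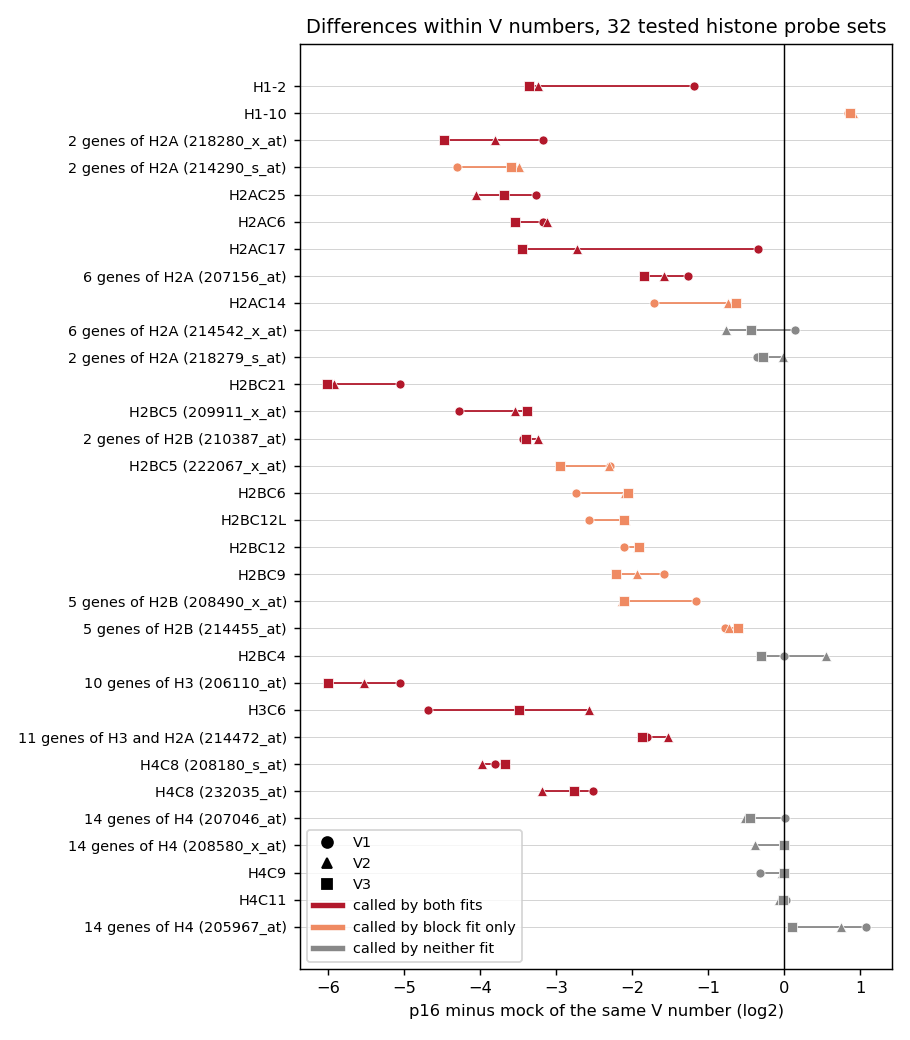
Each row is 1 of the 32 tested histone probe sets and the x axis is the log2 level in the p16 sample minus that in the mock sample of the same V number, with marker shapes for V1, V2 and V3 and colours for the fits that called the probe set. All 3 differences lie below 0 in 24 rows, and the H1-10 row and the row of 14 H4 genes (205967_at) are those with all 3 above 0.

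Of the 4 H2A genes tested 3 were lower in the p16 samples (4 with the block), where 22.5% of all genes were (35.5% with it). H2AC6, a chromosome 6 cluster gene, read 12.40, 11.92 and 12.25 in mock V1 to V3 and 9.23, 8.81 and 8.72 in p16 V1 to V3. The groups lay apart, with the samples within each close together. The fall was 9.68-fold (log2 difference -3.28, SE 0.22, adjusted p = 0.0002). H2AC25, which lies in the small chromosome 1 cluster once called HIST3, read 10.58, 11.21 and 11.11 in mock and 7.32, 7.15 and 7.43 in p16 samples. It was 12.7-fold lower (-3.67, SE 0.22, adjusted p = 0.00012), and its other probe set reached 4 in mock V3 alone. H2AC17 read 4.89, 7.02 and 7.27 against 4.55, 4.30 and 3.82, so the V1 pair differed by -0.34 while the V2 and V3 pairs differed by -2.72 and -3.45, the last against a p16 sample under the floor. Its call was the least firm of the 14: the adjusted p of 0.04976 rose to 0.14 without mock V2, 0.14 without mock V3, 0.084 without p16 V1, 0.12 without p16 V2 and 0.15 without p16 V3, it was 0.0019 without mock V1 (difference -2.92), and it also went past 0.05 without the filter, under each other scaling, with the floor and with the other variance model. H2AC14 read 6.67, 7.40 and 7.32 against 4.96, 6.66 and 6.67, where the p16 V1 sample stood low by itself. It was called with the block only (-1.03, adjusted p = 0.19 without and 0.023 with it).

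The shared H2A probe sets gave the same direction where they held signal. H2AC18 and H2AC19, neighbouring copies that encode the same protein, share 3 probe sets. On 218280_x_at they read 9.66, 10.93 and 11.47 in mock and 6.49, 7.13 and 7.0 in p16 samples, a 14.1-fold fall (-3.81, SE 0.50, adjusted p = 0.0023). On 214290_s_at they read 7.98, 11.92 and 12.13 against 3.67, 8.43 and 8.53. Here the p16 V2 and V3 samples lay above mock V1, so the groups overlapped, although the V2 and V3 pairs differed by -3.49 and -3.60, and the p16 V1 sample lay under the floor (adjusted p = 0.15, and 0.00031 with the block). The remaining one, 218279_s_at, stayed between 3.81 and 4.46 and was not called by either fit. A probe set annotated to 6 H2A genes (207156_at: H2AC11, H2AC12, H2AC13, H2AC15, H2AC16 and H2AC17) read 8.18, 8.31 and 8.90 against 6.90, 6.73 and 7.05 and was 2.96-fold lower (adjusted p = 0.0047). Another set of the same 6 genes, 214542_x_at, differed by -0.35 (adjusted p = 0.35) and lay between 4.64 and 5.55.

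Of the 7 H2B genes tested 2 were lower (6 with the block), where 22.5% of all genes were (35.5% with it), among them the gene of largest fall. H2BC21, the chromosome 1 gene that makes a polyadenylated message in many cells that do not divide, read 11.71, 10.01 and 10.16 in mock and 6.65, 4.09 and 4.14 in p16 samples. V1 was the highest sample of each group, and the groups did not overlap. The p16 V2 and V3 samples lay just above the floor of 4, so the fold is given as a lower bound. The fall was at least 50.7-fold (-5.66, SE 0.85, adjusted p = 0.004), and each V pair differed by -5.06 to -6.02. Without p16 V1 it was at least 91.1-fold (-6.51). H2BC5, another gene with a polyadenylated form, read 10.00, 11.99 and 12.25 against 5.72, 8.45 and 8.87 on its brighter probe set, 13.3-fold lower (-3.73, SE 1.02, adjusted p = 0.034). That call was lost without mock V2 (adjusted p = 0.11), mock V3 (0.11) or p16 V2 (0.068), and also without the filter (0.11). The fold itself was 6.73 without p16 V1 (-2.75), 21.7 without mock V1 (-4.44) and 20.1 without p16 V3 (-4.33). Its second probe set read 8.61, 10.79 and 11.19 against 6.31, 8.49 and 8.24 (-2.51, adjusted p = 0.075, 0.024 without mock V1 with a difference of -3.31, and 0.00063 with the block).

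Except for H2BC4, the H2B genes left were called with the block only. H2BC12 read 11.42, 13.60 and 13.66 in mock and 9.31, 11.68 and 11.75 in p16 samples. Mock V1 lay below p16 V2 and V3, yet the V pairs differed by -2.11, -1.92 and -1.91. The difference of -1.98 had an SE of 0.92 and an adjusted p of 0.15 without the block, and an SE of 0.11 and an adjusted p of 0.00037 with it. H2BC12L, a near copy on another chromosome, read 6.85, 11.10 and 10.87 against 4.28, 9.0 and 8.75. Its V pairs differed by -2.57, -2.10 and -2.11 (adjusted p = 0.36, and 0.00051 with the block). H2BC6 read 7.53, 10.13 and 9.94 against 4.79, 8.03 and 7.88 (-2.30, adjusted p = 0.17, and 0.00081 with the block). H2BC9 read 5.93, 9.60 and 9.72 against 4.35, 7.67 and 7.51 (-1.91, adjusted p = 0.34, and 0.00095 with the block). All 4 share the low V1 in both groups. H2BC6, H2BC9, H2BC12L and both probe sets of H2BC5 carry IDs ending in _x_at, which Affymetrix gives to sets whose probes can match other transcripts. These readings may therefore not be separate from each other. The sets of H2AC14 and 218280_x_at of H2AC18 and H2AC19 carry such IDs too. Of the 32 tested sets 11 do, and 2 of them were lower without the block and 8 with it. Of the 21 others, 12 and 15 were lower, against 19.7% and 32.6% of all tested probe sets.

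H2BC4, whose start lies opposite that of H2AC6, read 4.89, 5.85 and 5.95 in mock and 4.89, 6.40 and 5.64 in p16 samples. The groups overlapped, and the difference was 0.08 (SE 0.48, adjusted p = 0.92, and 0.75 with the block), where H2AC6 across the same region fell by 3.28. With the block the SE was 0.20 for H2BC4 and 0.14 for H2AC6. The 2 probe sets are different probes, so their levels are not set against each other. The difference between both genes was not tested. H2BC4 is also annotated to shared sets, given below, that were lower with the block (-1.80 and -0.70). A probe set of H2BC8 and H2BC11 (210387_at) read 7.31, 7.68 and 8.05 against 3.87, 4.43 and 4.65. It was at least 9.99-fold lower with the p16 V1 value raised to 4 (adjusted p = 0.00052). A pair of probe sets annotated to H2BC4, H2BC6, H2BC7, H2BC8 and H2BC10 was called with the block only. On 208490_x_at the values were 6.61, 9.62 and 9.36 against 5.45, 7.49 and 7.26 (adjusted p = 0.21 without the block, 0.033 without mock V1 with a difference of -2.76, and 0.0034 with the block), and on 214455_at they were 4.60, 6.89 and 7.01 against 3.82, 6.17 and 6.40 (adjusted p = 0.62, and 0.0056 with the block).

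H3 was lower on each of the 3 probe sets tested, where 19.7% of all tested probe sets were lower (32.6% with the block). Only 1 of them reads a single gene, H3C6, which is also annotated to both shared sets, so these readings may not be separate. Another set of the same 10 H3 genes, 214646_at, lay under 4 in every sample. H3C6 read 8.89, 6.76 and 7.69 in mock and 4.21, 4.19 and 4.20 in p16 samples. The mock samples were spread and the p16 samples sat together just above the floor, with an SD of 0.01 like that of sets under it. The fold of 12 is therefore given as a lower bound (at least 12-fold, adjusted p = 0.0038). A probe set annotated to 10 H3 genes between H3C1 and H3C12 (206110_at), read 10.21, 8.86 and 9.33 against 5.15, 3.33 and 3.34. It was at least 33.9-fold lower (adjusted p = 0.0013), with the p16 V2 and V3 samples under the floor. A further set of the same 10 and H2AC7 (214472_at) read 5.29, 5.77 and 5.91 against 3.48, 4.24 and 4.04 and was at least 2.96-fold lower (adjusted p = 0.0053).

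Of the 3 H4 genes tested only H4C8 was called, by both fits, where 22.5% of all genes were lower (35.5% with the block). On 232035_at it read 7.81, 7.82 and 7.56 in mock and 5.30, 4.64 and 4.79 in p16 samples, a 7.07-fold fall (-2.82, SE 0.23, adjusted p = 0.00038). On 208180_s_at it read 7.04, 6.74 and 6.72 against 3.23, 2.77 and 3.05, at least 7.13-fold lower. That set passed the filter through the mock samples alone, so its adjusted p is not given here. It is still counted among the lower probe sets of both fits, and those counts are also given above without it. H4C11 (4.97 to 5.07 over all 6 samples) and H4C9 (4.24 to 4.62) lay near the floor and differed by -0.02 and -0.12 (adjusted p = 0.92 and 0.64). A probe set annotated to 14 H4 genes (205967_at), H4C8 one of them, went the other way within each V number. It read 13.36, 12.49 and 12.38 in mock and 14.43, 13.24 and 12.48 in p16 samples, so that the V pairs differed by 1.07, 0.75 and 0.10. The difference of 0.64 was called by neither fit (adjusted p = 0.42, SE 0.55, and 0.058 with the block, SE 0.22). The other two H4 sets of the same 14 genes that were tested, 207046_at and 208580_x_at, differed by -0.32 and -0.13 (adjusted p = 0.25 and 0.61). The first lay near the floor, between 4.11 and 4.61, and the second between 5.40 and 5.81. Whether either held signal was not tested.

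Linker histones differed between H1-2, which fell, and H1-10, which did not. H1-2, a cluster gene, read 9.03, 11.05 and 11.27 in mock and 7.84, 7.81 and 7.91 in p16 samples. The mock V1 sample was low, and the p16 samples lay close together. The fall was 6.04-fold (-2.59, SE 0.61, adjusted p = 0.021). It lost its call without mock V2 (adjusted p = 0.071), mock V3 (0.066), p16 V1 (0.054), p16 V2 (0.07) or p16 V3 (0.067), and kept it with the block (0.0099). It also lost the call without the filter (0.077). Without mock V1 it was 9.92-fold lower (-3.31, adjusted p = 0.00029). H1-10, a replacement linker histone outside the clusters, read 9.64, 9.78 and 8.81 against 10.48, 10.68 and 9.67. The groups overlapped, but p16 was higher by 0.84, 0.90 and 0.87 within the V pairs (0.87, adjusted p = 0.13, and 0.0026 with the block, the single member called higher). The difference between both linker histones was not tested.

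The position of V1 split the histones along other lines than the comparison with p16. In 10 of the 32 probe sets V1 lay at least 1 log2 unit below the mean of V2 and V3 in both groups, against 9.09% of all tested probe sets. In 2, H2BC21 and the set of 10 H3 genes, it lay at least 1 above in both, against 7.34%. Of the 10 low ones 9 are H2B sets, out of 11 tested, and the other is the H2AC18 and H2AC19 set 214290_s_at. For H2BC12L V1 was lower by 4.13 in mock and 4.60 in p16 samples, for H2BC12 by 2.21 and 2.41, and for H2BC4 by 1.01 and 1.12. H2BC21 went the other way, 1.63 higher in mock V1 and 2.54 higher in p16 V1. H1-2 and H2AC17 were low in V1 of the mock group (V1 against the other two: -2.14 and -2.26) but not of the p16 group (-0.02 and 0.49). Across the 32 probe sets the position of V1 in mock and in p16 samples had a Pearson r of 0.874, and across all 24406 tested 0.814. Probe sets that share histone sequences are not independent points. What a V number stands for is not given in the labels, and its cause was not tested.

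**Figure D3:**
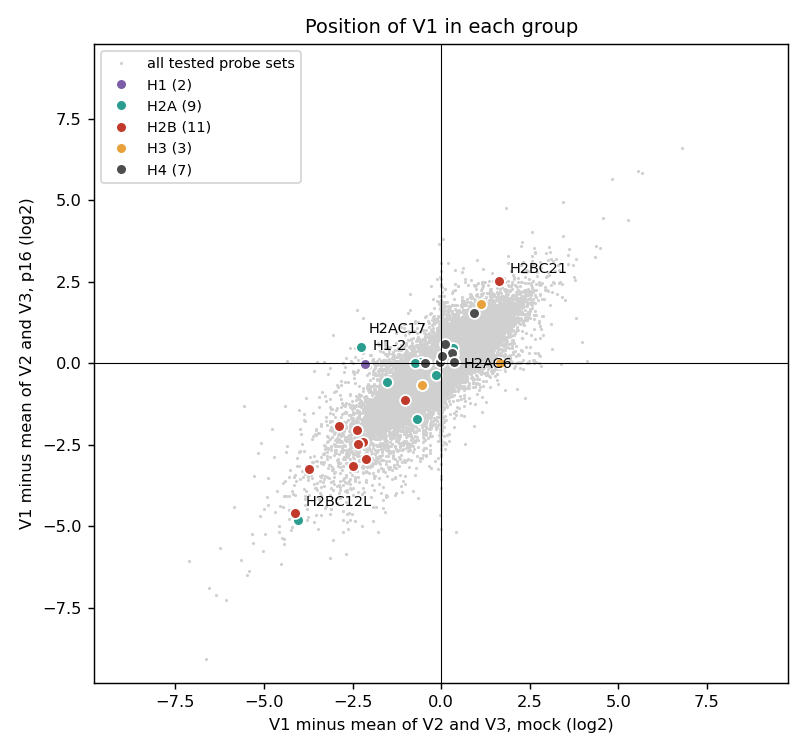
The x axis gives the log2 level in mock V1 minus the mean of mock V2 and V3, and the y axis the same in the p16 samples, for the 32 tested histone probe sets by family and for all tested probe sets in grey. H2B sets lie mostly at the lower left, down to -4.13 and -4.60 for H2BC12L, while H2BC21 lies at the upper right.

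Most histone genes of the array gave no reading. Of the 46 probe sets that were not tested, 39 lay under 4 in every sample, and 7 reached 4 in 1 or 2 mock samples and in no p16 sample. H2AC15 read 6.07, 3.30 and 4.98 in mock samples and 2.68 to 2.69 in p16 samples. H2AC8 read 3.56, 5.00 and 5.57 against 2.84, 3.0 and 2.96, and H3C2 reached 4.30 in mock V2 alone. The other four were the second set of H2AC25 and 3 shared sets, 215779_s_at, 208523_x_at and 214522_x_at. H1-1, H1-3, H1-4 and H1-5, the other cluster linker histones, lay under 4 in all 6 samples, as did H2BC3, H2BC11, H2BC14, H3C1, H3C3 and H4C1 on their own probe sets. A reading under the floor gives no level.

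The related lists, of genes that replace, transcribe, process or carry histones, had medians near or above 0. Among 9 replication-independent variants tested, H1-10 counted here too, 2 were higher and 2 lower (5 and 3 with the block; over all genes 19.5% were higher and 22.5% lower, and 32.4% and 35.5% with the block), with a median difference of 0.87 against -0.03 over all genes. H2AZ1, the variant of active promoters, read 13.90, 14.18 and 14.25 in mock and 15.06, 15.41 and 15.43 in p16 samples (1.19, SE 0.19, adjusted p = 0.0053). MACROH2A1 rose by 1.29 (adjusted p = 0.0023, called on 2 of its 4 probe sets), whereas the related MACROH2A2 was lower, at 10.14, 9.48 and 9.12 against 7.56, 5.54 and 5.36 (-3.42, adjusted p = 0.0097, and -4.13 without p16 V1). H2AJ was lower on all 4 of its probe sets (-0.82 on the brightest, adjusted p = 0.0092). H2AX, the DNA damage variant, differed by -0.67 (adjusted p = 0.34, and 0.038 with the block). H3-3A, a gene of the replacement histone H3.3, differed by 0.74 on its own probe set (adjusted p = 0.33), and the 8 sets it shares with H3-3B by -0.42 to 0.55, none of them called without the block and 3 with it.

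Of 11 genes that transcribe the histone clusters, 2 were higher and 1 lower (4 and 2 with the block), near the shares of all genes, 19.5% higher and 22.5% lower (32.4% and 35.5%). The E cyclins, which activate CDK2 toward NPAT, were the higher ones: CCNE2 read 8.73, 8.33 and 8.70 against 11.23, 10.52 and 10.58 (2.19, adjusted p = 0.0016), and CCNE1 differed by 0.95 (adjusted p = 0.013). TRRAP, an acetyltransferase cofactor, fell by 1.08 on 1 of its 2 probe sets (adjusted p = 0.018, and 0.065 without mock V3, 0.057 without p16 V2 and 0.054 without p16 V3). NPAT differed by 1.06 (adjusted p = 0.078, and 0.0024 with the block), HINFP, a factor of H4 promoters, by -0.98 (0.11, and 0.013 with the block), and CDK2 by 0.06 (0.88).

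Of 26 factors that process histone messages, 7 were higher and 4 lower (10 and 5 with the block), against 19.5% and 22.5% of all genes (32.4% and 35.5%). The 11 called became 7 without mock V2, and 6 without mock V3, p16 V2 or p16 V3. ERI1, the exonuclease that trims the histone stem-loop end, read 11.32, 11.42 and 11.66 in mock and 8.78, 8.58 and 9.0 in p16 samples (-2.68, SE 0.19, adjusted p = 0.00022). CSTF2, a cleavage factor, rose by 1.95 (adjusted p = 0.0031, called on 1 of its 2 probe sets) and LSM4, an RNA decay subunit, fell by 1.52 (0.002, on 1 of 3). LSM11, of the U7 particle that cuts histone messages, rose by 1.61 (0.03, but 0.083 without mock V3 and 0.08 without p16 V1, 0.065 without p16 V2 and 0.093 without p16 V3). SLBP read 9.39, 11.03 and 11.39 against 11.14, 12.86 and 13, with V1 low in both groups as in the H2B sets, and differed by 1.73 (adjusted p = 0.12, 0.049 without p16 V1 with a difference of 2.33, and 0.00051 with the block). CASP8AP2, which joins NPAT in the bodies where histone genes are transcribed, differed by 0.65 (0.062, and 0.01 with the block).

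Of 27 histone chaperones, 4 were higher and 2 lower (10 and 5 with the block), against 19.5% and 22.5% of all genes (32.4% and 35.5%). The 6 called became 3 without mock V3 or p16 V3. NAP1L1 was not called on its brightest probe set (0.53, adjusted p = 0.066), but 6 of its 7 sets were called higher without the block. RBBP4 differed by -0.69 on its brightest set (0.082), while 1 of its 6 sets was called higher. DAXX, which deposits H3.3, was higher by 1.80 (adjusted p = 0.0014), CHAF1B, of the replication-coupled assembly factor, by 1.42 (0.00091) and RBBP7 by 1.02 (0.0059). SSRP1, of the FACT complex, fell by 0.69 (0.037 on 1 of its 2 probe sets, from 0.054 to 0.12 without any 1 sample), and ASF1A fell by 0.47 (0.045 on 1 of 2, from 0.065 to 0.13 without any 1 sample). ASF1B, the form tied to dividing cells, differed by -0.36 (0.57, and 0.048 with the block) and NASP, a carrier of free H3 and H4, by -0.20 (0.51). Of 38 S phase replication genes, 9 were higher and 2 lower (22 and 5 with the block), against 19.5% and 22.5% of all genes (32.4% and 35.5%), with a median of 0.47. The 11 called became 6 without mock V2, p16 V2 or p16 V3, and 7 without mock V3. GINS1 rose by 2.69 (adjusted p = 0.00038), PRIM2 by 2.04 (0.0077), POLA1 by 1.66 (0.0037) and POLE by 1.13 (0.0047), all parts of the replication fork. PCNA, the polymerase clamp, differed by 0.36 (0.48, and 0.056 with the block) and the proliferation antigen gene MKI67 by 0.39 (0.13, and 0.046 with the block).

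**Figure D4:**
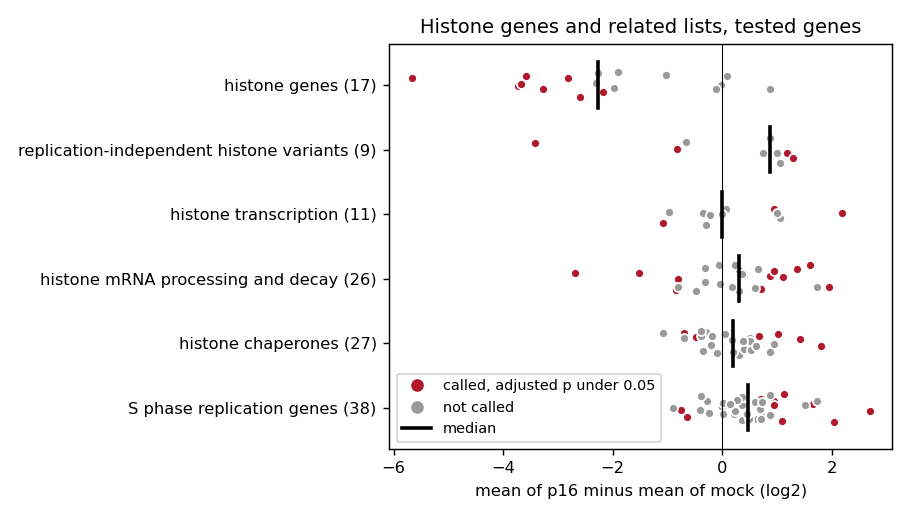
Each point is a tested gene, at the mean log2 level of the 3 p16 samples minus that of the 3 mock samples, with genes called at an adjusted p under 0.05 in red, the others in grey and the median of each list as a black bar. The histone genes have a median of -2.26, and the medians of the 5 related lists lie between -0.01 and 0.87.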

How the data were processed

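RNA of 6 Capan-1 samples was measured on Affymetrix arrays, from biotin-labelled cRNA of 300 ng total RNA, per the labels. The deposited values are log2 expression levels that the authors had normalized with GCRMA, per the submitters' processing notes; the version is not given in the sources used here. Because GCRMA removes a background modelled on the probes' bases, low values have no true level and folds against them are bounds: where a sample of the lower group lay under 4, its value was raised to 4 and the fold is given as "at least".

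Of 54675 probe sets 62 controls were left out. Platform annotation named 1 gene for 41091 and several for 1801. Probe sets with a log2 value of at least 4 in at least 3 of 6 samples (24406) were fitted with limma 3.58.1 in R 4.3.3 (lmFit, eBayes, two-sided), and p-values were Benjamini-Hochberg adjusted over all of them, with 0.05 as threshold. A gene takes its tested single-gene probe set with the highest mean. No list was tested as a set. Every member of the rule is accounted for. In each related list up to 4 called genes of largest change are named, and SLBP, NPAT, CASP8AP2, HINFP, CDK2, CCNE1, CCNE2, ASF1A, ASF1B, NASP, H2AX, H2AZ1, H3-3A, H3-3B (on shared probe sets only), PCNA, MKI67 and CDKN2A whatever their values. MTAP was added after the data were seen. The members and lists were chosen with earlier results of these data known.

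Same-numbered samples deviated from their group means together, with correlations of 0.814, 0.751 and 0.669 over the tested probe sets, so the V numbers were taken to pair the samples. Samples V2 and V3 of different groups also correlated (0.513 and 0.422). The number of arrays limits the precision. Tables and figures used Python 3.11.15, pandas 2.3.3 and matplotlib 3.10.9.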

Additional observations from a re-analysis of the deposited data

How the results depend on the processing

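No histone probe set or related gene named above changed direction under any alternative in which it was called. Under the replicate block (the V number) 24 histone probe sets were called (23 lower, 1 higher) against 14, 14 genes (13 lower, 1 higher) against 8, and 69 genes of the related lists against 35. The block raised the calls over the whole array too. Of all tested probe sets, 19.7% were lower and 17.5% higher without it, and 32.6% and 30.9% with it. Of all tested genes, 22.5% were lower and 19.5% higher without it, and 35.5% and 32.4% with it. The block changed no other call among the histones. Without the filter 5 histone genes were called, all lower, and the calls of H1-2, H2AC17 and H2BC5 were lost (the cause was not tested). With each shared probe set counted as a gene 13 were called, all lower. A stricter filter, quantile normalization, median centring, a floor at 4, and an intensity trend with a robust prior kept 12 to 13 probe sets and 7 genes. Taking the mean of a gene's probe sets gave 8. Leaving out 1 sample in turn gave 11 to 16 histone probe sets, 5 to 8 histone genes and 21 to 35 genes of the related lists. With 3 samples a group, and a floor under which 39 of the 78 histone probe sets lay in every sample, changes in those sets were not detectable.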
